A study of Homo sapiens with 14 samples.

Results

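Interferon response genes are the genes that cells switch on when interferons signal, and 39 of them were followed here through a day of dexamethasone in RS4;11 cells. The members were named from the known interferon pathway, at a time when earlier results of these data were known. Each was read from the probe sets of the array that are annotated with that gene alone. By this rule 37 of the 39 members were measured, out of 11963 genes, and their values came from 54 of the 22277 probe sets. A single probe set measured 25 members, 2 probe sets measured 9, 3 probe sets measured 2, and SP100 had 5. STAT2 and IFI30 had no probe set assigned to them alone and were not analysed here.

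RS4;11 is an established human line of B cell precursor acute lymphoblastic leukemia that carries a KMT2A rearrangement, so all arrays describe 1 cell line. Total RNA was hybridized from untreated cells (0 h, 4 arrays), from cells kept for 8 h in 10 nM dexamethasone (5 arrays) and from cells kept for 24 h in 10 nM dexamethasone (5 arrays). All cells, untreated ones included, had first been held in hormone-depleted serum, the hormone was added in ethanol, and 1 further untreated replicate had been set aside by the authors after quality control. Untreated cells were measured at 0 h only, so time in culture and the hormone cannot be told apart. A tag in the sample descriptions was read here as placing the arrays in 5 runs on 4 days. Runs 1 to 4 hold an array of each time point, and run 5 holds an 8 h and a 24 h array without an untreated one. Day 1 holds runs 1 and 2, and days 2 to 4 hold runs 3 to 5, so fits within these days rest on few arrays. The descriptions do not say whether the runs were separate cultures, and p-values measure the spread between arrays, which may in part be technical.

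Type I interferons bind the IFNAR1 and IFNAR2 receptor chains, which activate the kinases JAK1 and TYK2. These phosphorylate STAT2, which works with IRF9 in a complex that binds the interferon-stimulated response element (ISRE) in the promoters of its target genes. Interferon gamma acts through IFNGR1 and IFNGR2, and its target genes carry the gamma-activated site (GAS). The target genes code for sensors of foreign nucleic acid, for enzymes and GTPases that block viruses, for parts of antigen presentation and for brakes on the pathway itself. Dexamethasone is a synthetic glucocorticoid that acts through the glucocorticoid receptor (GR), a transcription factor known to restrain many inflammatory genes and to kill lymphoid leukemia cells.

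The promoters show what the members share apart from their names. RefSeq promoters on build GRCh38.p14, each running from 250 bases before an annotated transcription start to 50 bases from it, were matched by symbol for 28 of the 37 members (IRF2, IRF7, OAS2, OASL, IFIT2, MX2, TRIM22, GBP2 and USP18 were not matched). A short form of the ISRE core, GAAANNGAA, whose letters like those of the GAS motif were taken from general knowledge, was searched on both strands. This form was chosen after matches of a longer one in the same promoters had been seen, so its counts are a description. It was found in 20 of these 28 members (71.4%), against 904 of 9563 array genes with a promoter (9.45%) and 2847 of all 35114 promoters (8.11%). The GAS motif TTCNNNGAA was found in 9 of 28 members (32.1%), against 9.18% of array genes and 7.66% of all promoters. Windows of 30 bases around the ISRE core nearest to any annotated start of the gene are shown for 12 members whose transcripts followed different courses. They run 5′ to 3′ along the gene, with the core in capitals (a core on the opposite strand appears as its reverse complement).
MX1: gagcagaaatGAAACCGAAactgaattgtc
ISG20: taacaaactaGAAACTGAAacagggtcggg
TAP1: cgctttcgatTTCGCTTTCccctaaatggc
BST2: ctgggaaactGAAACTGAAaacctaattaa
IFIT3: ttccatcagtTTCACTTTCctttccccttt
ISG15: aagggaaaccGAAACTGAAgccaaatttgg
IFIT5: tttcttaagtTTCAGTTTCtgagcgctcgg
TAP2: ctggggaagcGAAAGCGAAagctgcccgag
OAS3: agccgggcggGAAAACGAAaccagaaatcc
EIF2AK2: agtccaagggGAAAACGAAactgagaacca
GBP1: tgctcgtgaactaaggaGAAAAAGAAcagg
IFIT1: actttcccctTTCGGTTTCcctaggtttcc

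The windows of genes that rose by 24 h lie at chr21:41420559-41420588 (MX1, plus strand), chr15:88638937-88638966 (ISG20, plus strand), chr6:32853812-32853841 (TAP1, minus strand), chr19:17405735-17405764 (BST2, minus strand) and chr10:89332469-89332498 (IFIT3, plus strand). Those of genes that fell by 24 h lie at chr6:32838778-32838807 (TAP2, minus strand), chr12:112938452-112938481 (OAS3, plus strand), chr2:37156967-37156996 (EIF2AK2, minus strand), chr1:89065159-89065188 (GBP1, minus strand) and chr10:89392511-89392540 (IFIT1, plus strand). The windows of ISG15 at chr1:1013386-1013415 (plus strand) and IFIT5 at chr10:89414555-89414584 (plus strand) belong to genes with no call between 24 h and untreated cells. Only the core nearest to a start is in capitals and compared here. Overlapping it, the MX1 window also holds GAAACTGAA and the ISG15 window GAAACCGAA. The BST2 window likewise holds a further GAAACTGAA and the TAP1 window TTCGATTTC. Among the cores in capitals, those of ISG20 and BST2 have the same letters, GAAACTGAA, as do those of OAS3 and EIF2AK2 with GAAAACGAA. The ISG15 core in capitals is GAAACTGAA as well, and so is that of IFIT5 when read on the opposite strand. Read in that way, the IFIT1 core matches that of MX1, GAAACCGAA, and the TAP1 core matches that of TAP2, GAAAGCGAA. MX1 and TAP1 rose by 24 h while IFIT1 and TAP2 fell. Whether the core letters bear on the direction was not tested.

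ISG20 had the largest rise of all members at 8 h and IFIT1 the largest fall. The 250 bases before a start of each are printed for comparison, with the ISRE cores in capitals. Where a gene had several annotated starts, the start with the most cores was taken, so these stretches were picked for holding the core. The ISG20 stretch and the IFIT3 window above lie downstream of the first annotated base of their genes (chr15:88635632 and chr10:89327997). The ISG20 stretch is chr15:88638766-88639015 and the IFIT1 stretch is chr10:89392373-89392622, both on the plus strand.
ISG20: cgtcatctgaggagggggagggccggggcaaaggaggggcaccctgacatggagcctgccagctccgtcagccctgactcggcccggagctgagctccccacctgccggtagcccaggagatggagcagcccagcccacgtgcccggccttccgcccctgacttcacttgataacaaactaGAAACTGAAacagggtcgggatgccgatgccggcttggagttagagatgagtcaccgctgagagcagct
IFIT1: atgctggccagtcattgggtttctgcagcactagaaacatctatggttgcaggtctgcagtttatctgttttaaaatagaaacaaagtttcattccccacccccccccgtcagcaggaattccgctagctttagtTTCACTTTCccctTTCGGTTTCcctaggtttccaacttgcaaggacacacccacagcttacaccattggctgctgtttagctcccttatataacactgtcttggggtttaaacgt

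**Figure D1:**
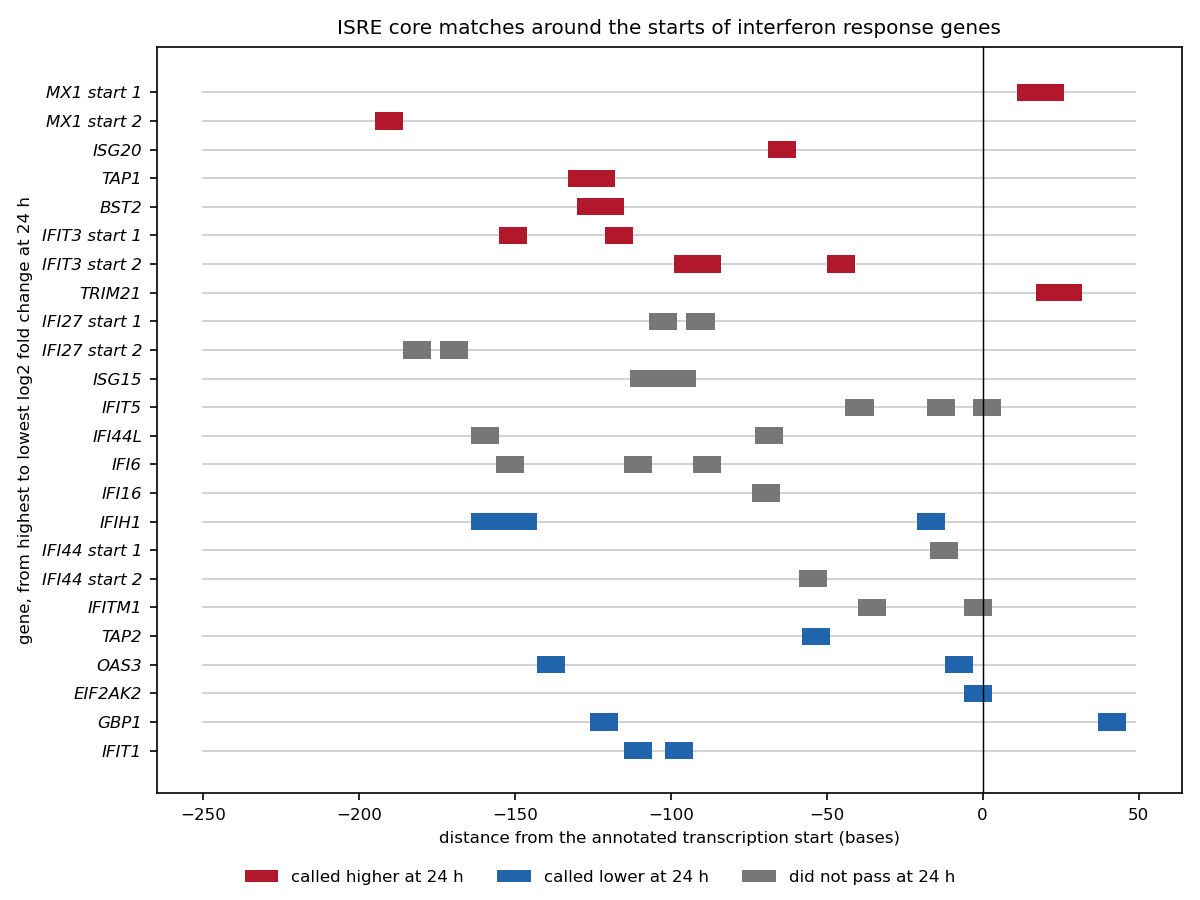
Positions of ISRE core matches (bars, on either strand, touching or overlapping matches drawn as 1 bar) around annotated transcription starts, in bases from the start, with 1 grey line per promoter of the 20 members that hold a match. Genes run from the highest log2 fold change between 24 h and untreated cells (top) to the lowest (bottom), with red for genes called higher, blue for genes called lower and grey for genes that did not pass. Matches stand near the starts of genes of all 3 kinds, and IFIT1 at the bottom has 2.

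The arrays carry the marks of the cell line and of the hormone. Of 13 precursor B cell markers 11 were measured, and their mean log2 value ranged from 9.38 to 9.82 over the 14 arrays. At 24 h 6 of the 11 were called higher and 4 lower, BLNK and DNTT with the largest falls (log2 -2.21 and -1.80). The 5 glucocorticoid-induced genes checked (FKBP5, TSC22D3, DDIT4, SGK1 and KLF9) were all called higher at both times. Among 10 T and NK cell markers 9 had a mean log2 value below 5 in every group (the exception was NKG7), and none was called at 8 h or 24 h against untreated cells. Among 9 monocyte and granulocyte markers 8 were below 5 in untreated cells, and 2 were called higher and 1 lower at 24 h. Of 6 erythroid and platelet markers GP9 was higher at both times (log2 0.82 at 8 h and 1.33 at 24 h). ITGA2B was lower at 24 h (log2 -0.15, adjusted p = 0.0399), and the median of the 6 was -0.15 at 24 h. Plasmacytoid dendritic cells are a strong source of interferon, and of their 4 measured markers LILRA4 and IL3RA rose at both times, TCF4 fell at both times, and GZMB stayed below 5; the mean of the 4 ranged from 5.01 to 5.08 at 24 h, from 4.93 to 5.11 at 8 h and from 4.81 to 4.97 in untreated arrays, and the part of these marker changes in the results was not tested. In bulk RNA, fewer cells of a type and less RNA per cell cannot be told apart. The median log2 value of all probe sets ranged from 6.07 to 6.11 in 24 h arrays, from 6.03 to 6.09 in 8 h arrays and from 6.03 to 6.05 in untreated arrays.

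In dexamethasone-treated cells the interferon response genes did not move in 1 direction. MX1, ISG20, IRF9, SP100 and TAP1 were higher at both times, IFIT1, XAF1 and IFI35 were lower at both, and a group led by USP18 and BST2 was called higher at 24 h and not at 8 h. At 8 h against untreated cells 6 members were called higher (16.2% of members; 8.69% of all genes) and 6 lower (16.2%; 11.0% of all genes), at an adjusted p below 0.05 in the limma fit over all 11963 genes, of which 19.7% were called in either direction. At 24 h against untreated cells 13 were called higher (35.1%; 19.5% of all genes) and 8 lower (21.6%; 20.9% of all genes), where 40.5% of all genes were called. From 8 h to 24 h, 15 members were called higher (40.5%; 14.6% of all genes) and 4 lower (10.8%; 13.7% of all genes), where 28.3% of all genes were called. The median log2 fold change of the 37 members was -0.06 at 8 h, 0.12 at 24 h and 0.20 between 24 h and 8 h, while that of all genes was -0.02, -0.02 and 0.00 in the same order. The comparisons with untreated cells share the same 4 arrays. Because the members were chosen with earlier results known, their shares beside those of all genes are a description.

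The share of calls moved with the level of the genes. Of the 37 members 32 had a mean log2 value of at least 5 over all arrays, and IFIT1, GBP2, IFI27, IFI44 and IFI44L were below 5 in each group (IFI44 as the average of a dim and a brighter probe set). Among genes of at least 5, 34.4% of members and 28.4% of genes were called at 8 h, and 62.5% of members and 56.9% of genes at 24 h. Between 24 h and 8 h, 43.8% of such members and 21.0% of such genes were called higher, and 9.38% of members and 20.2% of genes lower. The arrays of the 2 groups did not overlap for 5 members above and 6 below at 8 h (7.86% and 10.4% of all genes), for 12 above and 4 below at 24 h (17.2% and 18.1%), and for 12 above and 3 below between 24 h and 8 h (11.5% and 10.9%). Within the runs, each of the 12 members called at 8 h and of the 21 called at 24 h differed from untreated cells in the called direction in all 4 runs, and each of the 19 called between 24 h and 8 h did so in all 5 runs. These differences come from the same arrays as the calls and cover called members only. The agreement therefore describes the calls and is no separate test of them, and the share over all called genes is not given.

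**Figure D2:**
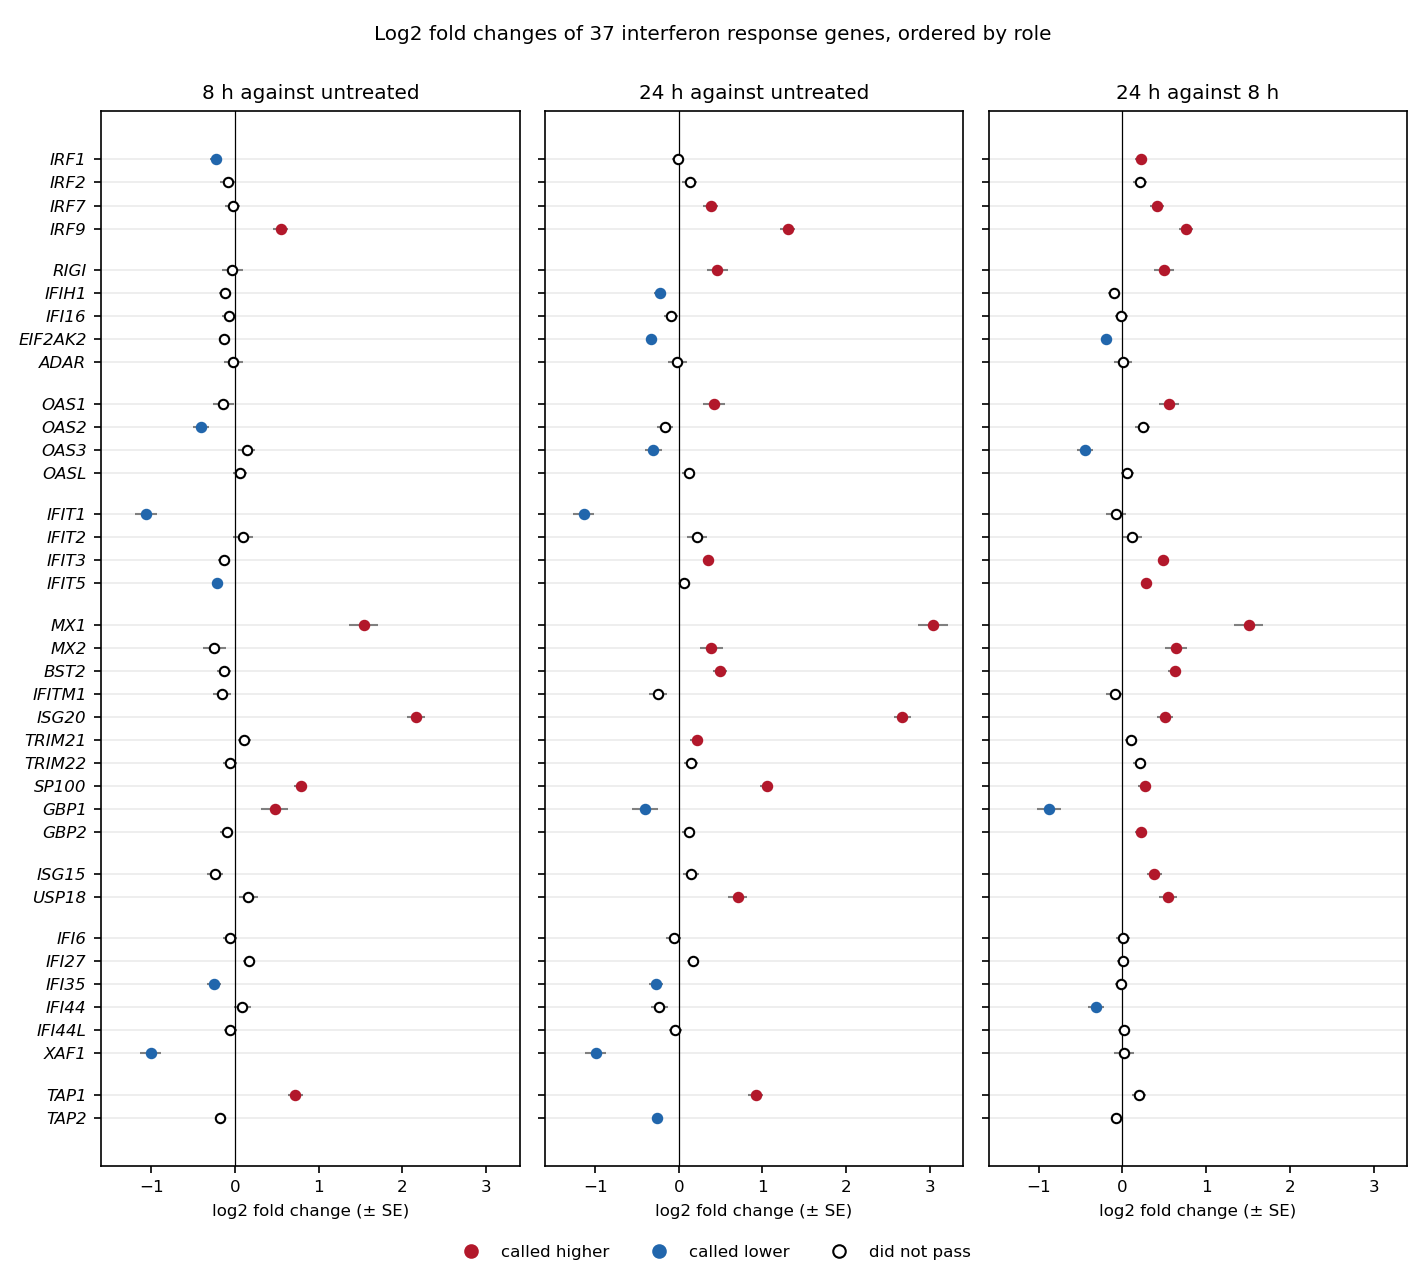
Log2 fold changes (points, with bars of 1 SE from the limma fit) of the 37 measured members for 8 h against untreated, 24 h against untreated and 24 h against 8 h, grouped by role from transcription factors (top) to antigen processing (bottom). Filled red and blue points passed an adjusted p below 0.05, and open points did not pass. MX1 and ISG20 stand furthest to the right at both times, IFIT1 and XAF1 furthest to the left, and 15 points are red in the right panel.

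Among the transcription factors, IRF9, the DNA-binding subunit of the ISRE-binding complex, stood out. Its log2 values were 7.33, 7.41, 7.55 and 7.32 in untreated arrays of runs 1 to 4, 7.86, 7.74, 8.11, 7.99 and 8.06 in 8 h arrays of runs 1 to 5, and 8.57, 8.56, 8.82, 8.69 and 8.88 in 24 h arrays of runs 1 to 5. No group overlapped another, and IRF9 averaged 8.70 ± 0.144 at 24 h against 7.40 ± 0.104 in untreated cells (SD, n = 5 and 4). It was 1.46-fold higher at 8 h (log2 0.55, SE 0.0887, adjusted p = 0.000293) and 2.46-fold higher at 24 h (log2 1.30, adjusted p = 5.12e-09), with a further 1.69-fold between 24 h and 8 h. IRF7, which drives production of type I interferon, did not pass at 8 h (log2 -0.03) and was 1.30-fold higher at 24 h (log2 0.38, adjusted p = 0.0026). IRF1, an activator best known downstream of interferon gamma, fell by 0.23 on the log2 scale at 8 h (adjusted p = 0.0251) and did not pass at 24 h (log2 -0.01, adjusted p = 0.912). The IRF1 fall is small and did not pass within day 1 (log2 -0.20, adjusted p = 0.141) or within days 2 to 4 (-0.26, adjusted p = 0.0975). IRF2, which opposes IRF1 at shared sites, did not pass in any of the 3 comparisons (log2 -0.09, 0.13 and 0.21). A fit blocked on the run called IRF2 higher at 24 h against 8 h (adjusted p = 0.0118, higher in 5 of 5 runs).

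The nucleic acid sensors and the RNA-binding enzymes beside them moved little. RIGI, a sensor of viral double-stranded RNA, did not pass at 8 h (log2 -0.03, but -0.47 with adjusted p = 0.00506 within day 1) and was 1.38-fold higher at 24 h (log2 0.46, adjusted p = 0.00734), with all 24 h arrays at 7.23 or above and all untreated arrays at 7.03 or below. IFIH1, a sensor of long double-stranded RNA, fell by 0.23 at 24 h (adjusted p = 0.0188). Its probe sets differed. The dimmer one, with a mean log2 value of only 3.85 in untreated cells and 3.48 at 24 h, fell by 0.37 at 24 h (adjusted p = 0.0164). The brighter one, at 7.55 and 7.47, gave -0.08 (adjusted p = 0.616). EIF2AK2, the kinase that stops translation when it meets double-stranded RNA, did not pass at 8 h (log2 -0.14, but -0.26 with adjusted p = 0.0125 within days 2 to 4) and fell by 0.33 at 24 h (adjusted p = 0.000292), with 24 h arrays between 8.48 and 8.52 and untreated arrays between 8.70 and 8.94. IFI16, which binds foreign DNA, and ADAR, which edits adenosine in double-stranded RNA, did not pass in any comparison, with log2 fold changes between -0.09 and 0.00. Within day 1 IFI16 was called lower at 24 h (log2 -0.28, adjusted p = 0.0118).

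The oligoadenylate synthetases make the messenger that switches on RNase L, and the 3 genes that share a stretch of chromosome 12 had 3 different sets of calls. OAS1 had log2 values of 5.65, 5.88, 5.92 and 6.07 in untreated arrays of runs 1 to 4, 5.50, 5.40, 5.75, 6.10 and 5.97 in 8 h arrays of runs 1 to 5, and 6.17, 6.19, 6.29, 6.46 and 6.39 in 24 h arrays of runs 1 to 5. The 24 h arrays lay above all others, and OAS1 was 1.34-fold higher at 24 h against untreated cells (log2 0.42, SE 0.129, adjusted p = 0.0155) and 1.47-fold higher at 24 h against 8 h (log2 0.56, adjusted p = 0.00228). Without the untreated array of run 1, the lowest of its group, the OAS1 call at 24 h was lost (log2 0.34, adjusted p = 0.0628). OAS2 fell by 0.41 at 8 h (adjusted p = 0.00504) and did not pass at 24 h (log2 -0.17, adjusted p = 0.189), where a fit blocked on the run called it lower (-0.20, adjusted p = 0.043). A fit with the run as a random block did not (-0.18, adjusted p = 0.0698). The 2 OAS2 probe sets differed at 24 h against untreated cells. The dimmer one fell by 0.30 (adjusted p = 0.0357), and the brighter one gave -0.03 (adjusted p = 0.832). At 24 h against 8 h the brighter one was higher (log2 0.33, adjusted p = 0.013), and the dimmer one gave 0.16 (adjusted p = 0.308). OAS3 did not pass at 8 h (log2 0.14), fell by 0.31 at 24 h against untreated cells (adjusted p = 0.0233) and fell by 0.45 at 24 h against 8 h (adjusted p = 0.002). OASL, a relative that lacks the enzyme activity, did not pass in any comparison (log2 0.06, 0.12 and 0.06).

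The IFIT proteins bind foreign RNA and keep it from being translated, and their genes lie close together on chromosome 10. IFIT1, which recognises RNA caps that lack host methylation, had log2 values of 4.95, 4.99, 4.80 and 5.10 in untreated arrays of runs 1 to 4, 3.41, 4.0, 3.78, 4.07 and 4.20 in 8 h arrays of runs 1 to 5, and 3.78, 4.01, 3.80, 3.67 and 3.83 in 24 h arrays of runs 1 to 5. Every treated array lay below every untreated one, and the 8 h and 24 h arrays overlapped. IFIT1 fell by 1.07 on the log2 scale at 8 h (SE 0.127, adjusted p = 1.48e-05) and by 1.14 at 24 h (adjusted p = 1.68e-06). These levels are dim, IFIT1 is among the members below 5 in each group, and the size of its fall is uncertain for that reason. IFIT3, which stabilises IFIT1, did not pass at 8 h (log2 -0.13) and was 1.28-fold higher at 24 h (log2 0.35, adjusted p = 0.000506). IFIT5, which binds RNA with a triphosphate end, fell by 0.22 at 8 h (adjusted p = 0.00658), did not pass at 24 h against untreated cells (log2 0.06) and was higher at 24 h against 8 h (log2 0.28, adjusted p = 0.000442). IFIT2 did not pass in any comparison (log2 0.10, 0.22 and 0.12). Within days 2 to 4 it was called higher at 24 h (0.35, adjusted p = 0.0203).

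Other antiviral effectors held the largest rises. MX1, a dynamin-like GTPase that traps viral nucleocapsids, had log2 values of 5.36, 5.06, 5.49 and 5.42 in untreated arrays of runs 1 to 4, 6.63, 6.53, 7.17, 7.09 and 6.92 in 8 h arrays of runs 1 to 5, and 7.99, 7.94, 8.55, 8.79 and 8.60 in 24 h arrays of runs 1 to 5. The 3 groups were separate, and in both treated groups runs 1 and 2, which share a day, were the lowest. MX1 averaged 6.87 ± 0.284 at 8 h and 8.37 ± 0.385 at 24 h (SD, n = 5 each), against 5.33 ± 0.191 in untreated cells (n = 4). It was 2.90-fold higher at 8 h (log2 1.53, SE 0.178, adjusted p = 1.14e-05), 8.23-fold higher at 24 h (log2 3.04, adjusted p = 9.03e-10) and 2.84-fold higher at 24 h against 8 h (log2 1.51, adjusted p = 4.78e-06). Within the runs the rise at 24 h ranged from 2.62 to 3.37 on the log2 scale.

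ISG20, an exonuclease that degrades RNA, reached most of its rise by 8 h. Its log2 values were 10.42, 10.60, 10.04 and 9.98 in untreated arrays of runs 1 to 4, 12.38, 12.40, 12.48, 12.41 and 12.45 in 8 h arrays of runs 1 to 5, and 12.95, 13.07, 12.87, 12.83 and 12.95 in 24 h arrays of runs 1 to 5. The groups were separate, and the spread was widest in untreated cells (SD 0.300, against 0.0892 at 24 h and 0.0392 at 8 h). ISG20 was 4.48-fold higher at 8 h (log2 2.16, SE 0.104, adjusted p = 4.22e-10), 6.38-fold higher at 24 h (log2 2.67, adjusted p = 6.54e-12) and 1.42-fold higher at 24 h against 8 h (log2 0.51, adjusted p = 0.000836). Its 2 probe sets gave nearly the same changes at 8 h (log2 2.16 in both) and at 24 h (2.68 and 2.66).

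SP100, a scaffold of PML nuclear bodies, had log2 values of 6.44, 6.56, 6.58 and 6.51 in untreated arrays of runs 1 to 4, 7.15, 7.17, 7.44, 7.47 and 7.30 in 8 h arrays of runs 1 to 5, and 7.46, 7.43, 7.72, 7.66 and 7.59 in 24 h arrays of runs 1 to 5. Both treated groups lay above the untreated arrays and overlapped each other. It was 1.72-fold higher at 8 h (log2 0.78, SE 0.0812, adjusted p = 3.39e-06) and 2.07-fold higher at 24 h (log2 1.05, adjusted p = 2.33e-08), and its rise between 24 h and 8 h was small (log2 0.27, adjusted p = 0.0145). Its 5 probe sets rose by between 0.44 and 1.44 at 24 h, all of them past the threshold, and 4 of the 5 passed at 8 h.

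A later rise was seen in MX2 and BST2. MX2, the MX protein that restricts HIV, had log2 values of 7.42, 7.49, 7.77 and 7.59 in untreated arrays of runs 1 to 4, 6.96, 6.96, 7.60, 7.56 and 7.50 in 8 h arrays of runs 1 to 5, and 7.77, 7.84, 7.94, 8.05 and 8.16 in 24 h arrays of runs 1 to 5. The 24 h arrays lay above all others, and the low 8 h values were those of runs 1 and 2. MX2 was 1.55-fold higher at 24 h against 8 h (log2 0.64, SE 0.131, adjusted p = 0.00143) and 1.31-fold higher at 24 h against untreated cells (log2 0.39, adjusted p = 0.0346), a call that was lost without the 24 h array of run 3, 4 or 5 or the untreated array of run 1, 2 or 4 (adjusted p up to 0.102). At 8 h it did not pass (log2 -0.25, adjusted p = 0.262), and blocking on the run turned this into a called fall (-0.30, adjusted p = 0.0219), which the run as a random block did not (-0.27, adjusted p = 0.0762). Within day 1 it was called lower at 8 h (-0.49, adjusted p = 0.00266).

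BST2, which tethers budding virus to the cell surface, had log2 values of 9.21, 9.33, 9.54 and 9.26 in untreated arrays of runs 1 to 4, 9.06, 9.11, 9.36, 9.34 and 9.16 in 8 h arrays of runs 1 to 5, and 9.78, 9.77, 9.93, 9.94 and 9.72 in 24 h arrays of runs 1 to 5. The 24 h arrays were above all others, and the 8 h and untreated arrays overlapped. BST2 was 1.41-fold higher at 24 h against untreated cells (log2 0.49, SE 0.0843, adjusted p = 0.000156) and 1.54-fold higher at 24 h against 8 h (log2 0.62, adjusted p = 1.92e-05).

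GBP1, a GTPase that attacks the membranes around intracellular pathogens, was the member whose calls pointed in opposite directions. Its log2 values were 7.22, 7.26, 7.36 and 7.94 in untreated arrays of runs 1 to 4, 7.80, 8.02, 7.51, 8.17 and 8.08 in 8 h arrays of runs 1 to 5, and 6.95, 6.96, 6.91, 7.39 and 7.0 in 24 h arrays of runs 1 to 5. Run 4 was the highest in each group, and both treated groups overlapped the untreated arrays but not each other. GBP1 was 1.39-fold higher at 8 h (log2 0.47, SE 0.156, adjusted p = 0.0434) and fell by 0.41 at 24 h against untreated cells (adjusted p = 0.0485), and both calls stood close to the threshold. Without the untreated array of run 4 the 24 h difference was -0.24 (adjusted p = 0.199), and within days 2 to 4 the 8 h difference was 0.27 (adjusted p = 0.463). The fall at 24 h against 8 h was firm at 1.84-fold (log2 -0.88, SE 0.147, adjusted p = 0.000251), with values from -1.08 to -0.60 within the runs. GBP2, its neighbour on chromosome 1, had a mean log2 value below 5 in each group and passed only between 24 h and 8 h (log2 0.22, adjusted p = 0.0241).

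The remaining effectors had log2 fold changes between -0.25 and 0.22. TRIM21, the cytosolic antibody receptor, was 1.16-fold higher at 24 h (log2 0.22, adjusted p = 0.039) and gave 0.15 (adjusted p = 0.155) without the untreated array of run 2. TRIM22 did not pass in any comparison (log2 -0.06, 0.14 and 0.21), and blocking on the run made it a called rise at 24 h against 8 h (0.21, adjusted p = 0.0232). IFITM1, which keeps viruses from entering the cell, gave -0.16 at 8 h and -0.25 at 24 h without passing (adjusted p = 0.386 and 0.0773), and was called lower at both times when blocked on the run (-0.18 and -0.27, adjusted p = 0.0467 and 0.00236). With the run as a random block it was called at 24 h (-0.26, adjusted p = 0.0132) and not at 8 h (-0.17, adjusted p = 0.154).

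**Figure D3:**
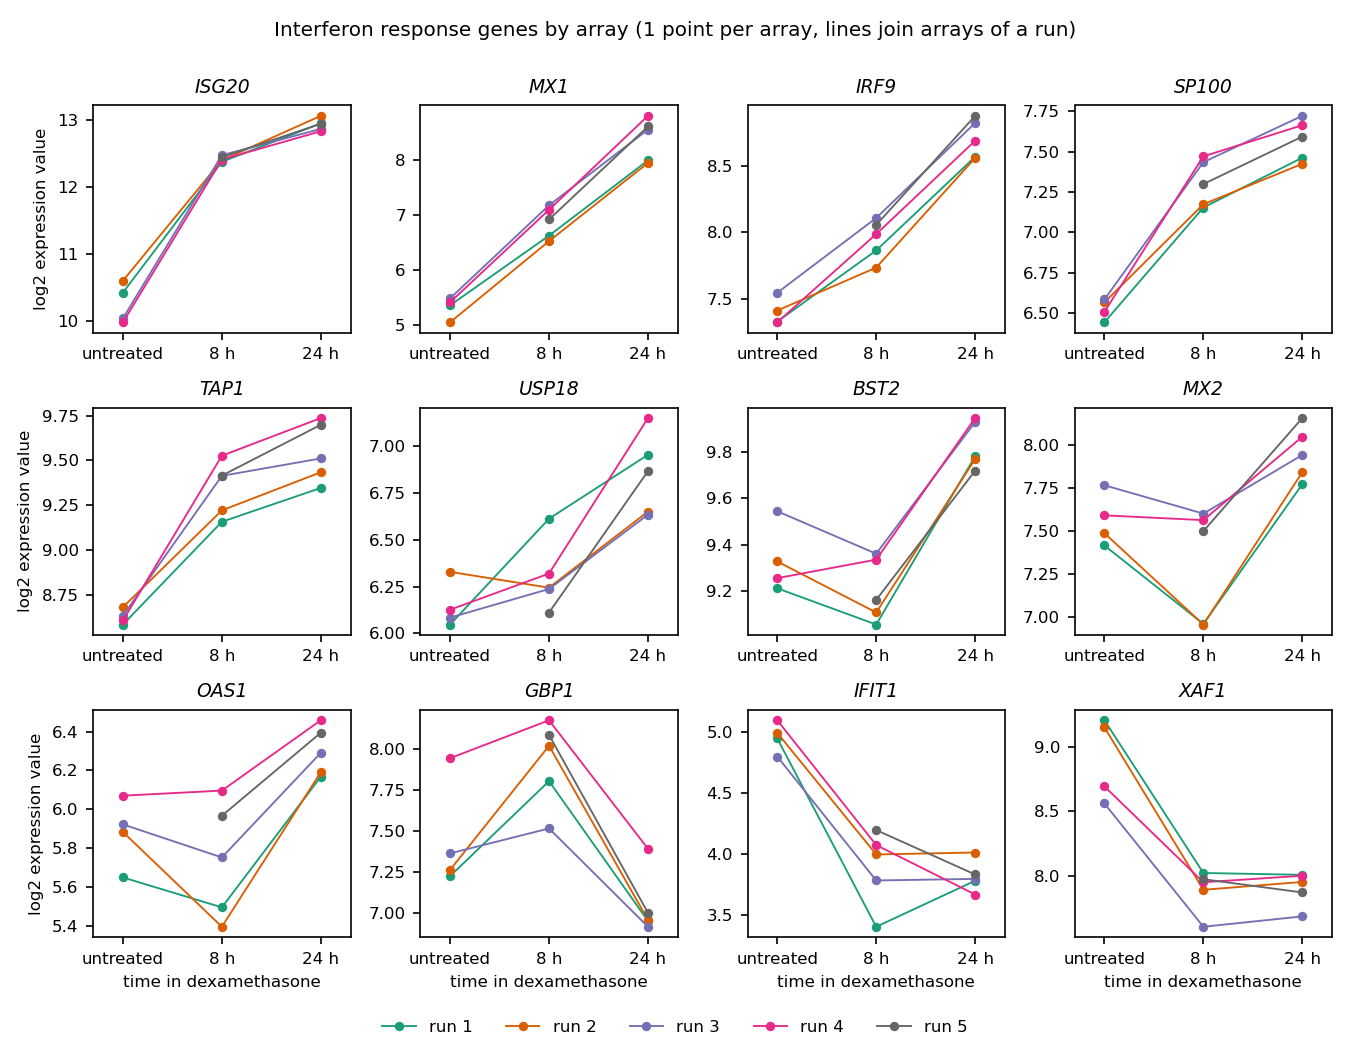
Log2 expression values of 12 members in every array, by time in dexamethasone, with 1 point per array and lines joining arrays of a run (run 5 has no untreated array). MX1 and IRF9 climb at each time in every run, IFIT1 and XAF1 lie lower in every treated array than in any untreated one, and USP18, BST2, MX2 and OAS1 have their highest values at 24 h.

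The ISG15 system attaches a small ubiquitin-like protein to others and removes it again. USP18, which removes ISG15 and also shuts down the type I interferon receptor, had log2 values of 6.05, 6.33, 6.08 and 6.13 in untreated arrays of runs 1 to 4, 6.61, 6.24, 6.24, 6.32 and 6.11 in 8 h arrays of runs 1 to 5, and 6.95, 6.65, 6.63, 7.15 and 6.87 in 24 h arrays of runs 1 to 5. The 24 h arrays lay above all others, and the 8 h array of run 1 was the highest of its group. USP18 was 1.63-fold higher at 24 h against untreated cells (log2 0.70, SE 0.113, adjusted p = 8.25e-05) and 1.46-fold higher at 24 h against 8 h (log2 0.55, adjusted p = 0.000944). ISG15 itself did not pass at 8 h (log2 -0.24, adjusted p = 0.101) or at 24 h (log2 0.14, adjusted p = 0.278) against untreated cells and was 1.30-fold higher at 24 h against 8 h (log2 0.38, adjusted p = 0.00419). In fits to the arrays of only some days it was called lower at 8 h within days 2 to 4 (log2 -0.48, adjusted p = 0.000639). Within day 1 it was called higher at 24 h (log2 0.44, adjusted p = 0.00247).

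Of the other interferon-inducible genes, XAF1 fell the most. XAF1, an antagonist of the caspase inhibitor XIAP, had log2 values of 9.20, 9.15, 8.56 and 8.69 in untreated arrays of runs 1 to 4, 8.02, 7.89, 7.61, 7.95 and 7.98 in 8 h arrays of runs 1 to 5, and 8.01, 7.95, 7.69, 8.00 and 7.87 in 24 h arrays of runs 1 to 5. Every treated array lay below every untreated one, run 3 was the lowest in each group, and the 2 treated groups overlapped. XAF1 fell by 1.01 at 8 h (SE 0.127, adjusted p = 2.45e-05) and fell by 1.0 at 24 h (adjusted p = 7.38e-06), and its level at 24 h against 8 h did not pass (log2 0.01, adjusted p = 0.954). IFI35 fell by 0.25 at 8 h (adjusted p = 0.0353) and by 0.27 at 24 h (adjusted p = 0.0121). IFI44 passed only between 24 h and 8 h (log2 -0.32, adjusted p = 0.0169) and became a called fall at 24 h against untreated cells when blocked on the run (-0.26, adjusted p = 0.00561). These values average 2 probe sets that differ in level. The brighter one, with means of 5.79 in untreated cells, 5.92 at 8 h and 5.30 at 24 h, fell by 0.62 at 24 h against 8 h (adjusted p = 0.00513) and by 0.49 at 24 h against untreated cells (adjusted p = 0.0211). The dim one stayed between 3.11 and 3.15 and did not pass. IFI6, IFI27 and IFI44L did not pass in any comparison, with log2 fold changes between -0.06 and 0.17.

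In antigen processing, TAP1 and TAP2 code for the paired subunits of the transporter that carries peptides to MHC class I, and lie close together on chromosome 6. TAP1 had log2 values of 8.59, 8.68, 8.64 and 8.61 in untreated arrays of runs 1 to 4, 9.16, 9.22, 9.41, 9.53 and 9.42 in 8 h arrays of runs 1 to 5, and 9.35, 9.43, 9.51, 9.74 and 9.70 in 24 h arrays of runs 1 to 5. The treated arrays lay above all untreated ones and overlapped each other. TAP1 was 1.65-fold higher at 8 h (log2 0.72, SE 0.0894, adjusted p = 2.23e-05) and 1.89-fold higher at 24 h (log2 0.92, adjusted p = 3.55e-07). At 24 h against 8 h it gave log2 0.20 (adjusted p = 0.0984), and a fit blocked on the run took this past the threshold (adjusted p = 0.0249). TAP2 did not pass at 8 h (log2 -0.17, adjusted p = 0.0711 without the block, and -0.18, adjusted p = 0.0487 when blocked on the run) and fell by 0.26 at 24 h (adjusted p = 0.00388). Its brightest probe set fell by 0.48 at 24 h (adjusted p = 0.0124), and the dimmer 2 did not pass (log2 -0.22 and -0.06).

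**Figure D4:**
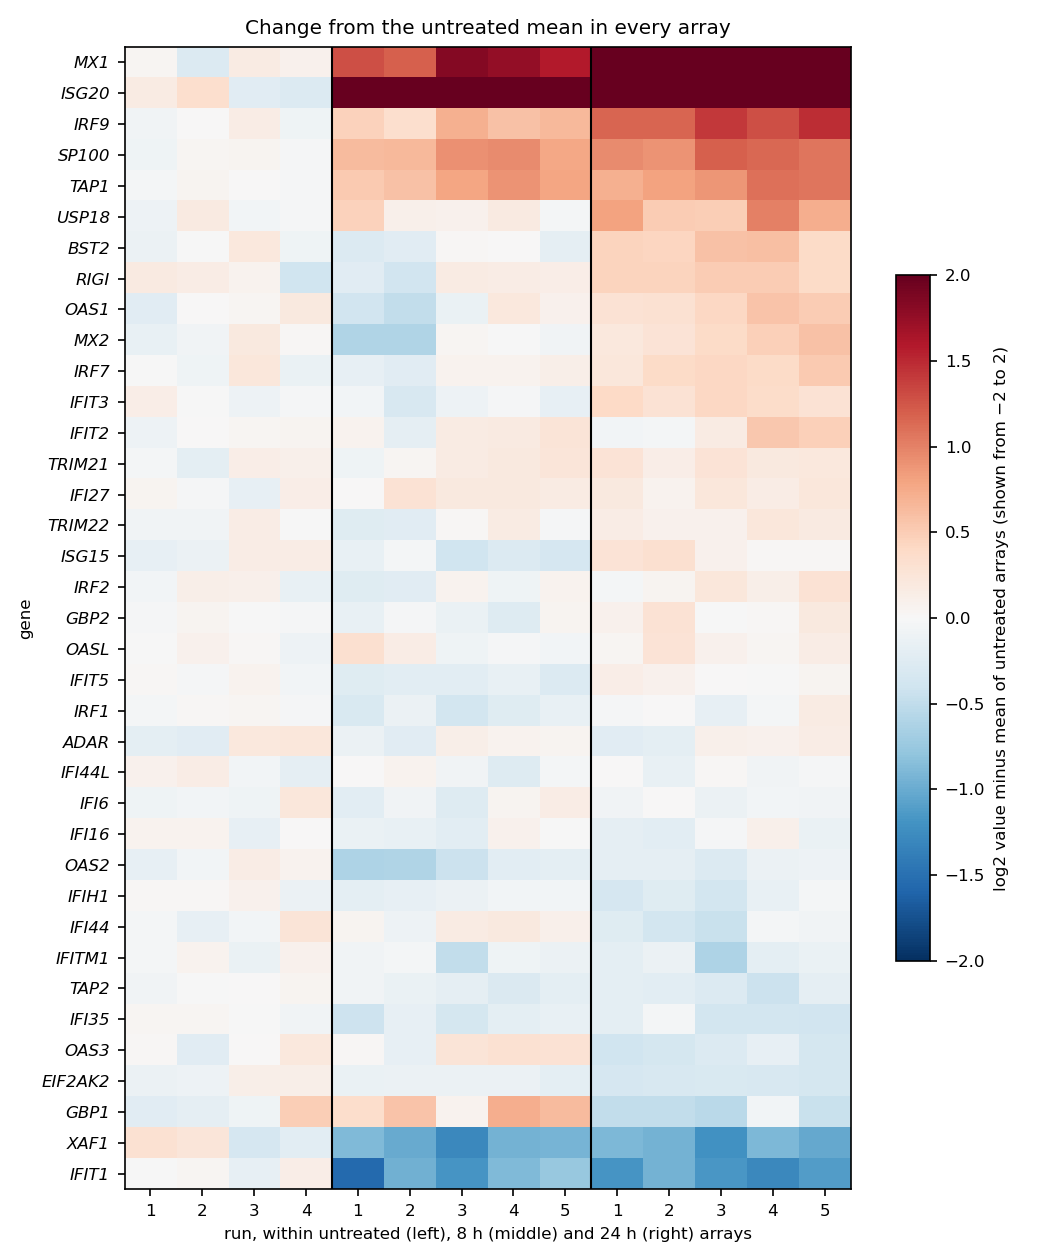
Change of each of the 37 members from the mean of its untreated arrays, in log2 units (color, red higher and blue lower, shown from -2 to 2), for the untreated (left), 8 h (middle) and 24 h (right) arrays by run. Genes run from the highest to the lowest log2 fold change between 24 h and untreated cells. The rows of MX1 and ISG20 are red in all 10 treated arrays, and those of XAF1 and IFIT1 are blue in all 10.

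Calls fell on members with and without the ISRE core. Of the 20 members with the core, 6 were called higher at 24 h against untreated cells, 6 lower, and 8 did not pass (19.5% of all genes were called higher and 20.9% lower). Of the 8 members with a promoter sequence and no core, 4 were higher, 2 lower and 2 did not pass. Of the 9 with no promoter sequence 3 were higher, 0 lower and 6 did not pass. At 8 h these counts were 4, 2 and 14 with the core, 2, 3 and 3 without it, and 0, 1 and 8 with no promoter sequence (8.69% of all genes were called higher and 11.0% lower). IRF9, SP100 and XAF1, which changed at both times, were among those without the core in this window.

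The rest of the pathway was read from fixed lists. None of the 14 measured interferon ligand genes had a mean log2 value of 5 or more in any group, and none was called at 8 h. At 24 h IFNA10 alone passed, with log2 0.18 (adjusted p = 0.0384). Of 11 measured receptor and signalling genes, 3 were called higher and 1 lower at 8 h (36.4% called, against 19.7% of all genes), and 7 higher and 1 lower at 24 h (72.7%, against 40.5%). IFNGR1, the ligand-binding chain of the interferon gamma receptor, was higher at 8 h (log2 1.19) and 24 h (log2 1.53), as was SOCS1, an inhibitor of JAK kinases (log2 1.10 and 1.45). PIAS1, a SUMO ligase, was higher at both times (log2 0.46 and 0.73), and the kinase JAK1 was higher at 24 h (log2 0.84) without passing at 8 h (log2 0.17). Each chain of the type I receptor was called lower at 1 time only. IFNAR2 fell by 0.33 at 8 h and gave -0.16 at 24 h (adjusted p = 0.0961). IFNAR1 fell by 0.28 at 24 h and gave -0.22 at 8 h (adjusted p = 0.137).

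Among 34 further interferon-inducible genes that were measured, 4 were called higher and 8 lower at 8 h (35.3% called, against 19.7% of all genes), and 5 higher and 10 lower at 24 h (44.1%, near the 40.5% of all genes). Their median log2 fold change was -0.10 at 8 h and -0.08 at 24 h. HERC5, the ligase that attaches ISG15, fell by 0.37 at 8 h and fell by 1.61 at 24 h. WARS1, the tryptophanyl-tRNA synthetase, fell by 1.10 at 8 h and fell by 1.62 at 24 h. SAMHD1, which limits the supply of nucleotides to viruses, fell by 1.34 at 8 h and fell by 0.81 at 24 h. IFITM2, a relative of IFITM1, fell by 0.21 at 8 h and fell by 0.64 at 24 h. SAMD9 rose at 8 h (log2 0.44) and 24 h (log2 0.68), and DDX60, a helicase that works with RIGI, rose at 8 h (log2 0.56) and did not pass at 24 h (log2 0.13).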

How the data were processed

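The authors deposited log2 expression values for 22277 probe sets, made with the RMA algorithm of the affy package (versions not given in the sources used here), which corrects background, normalizes arrays to a common distribution and summarizes probes. The labels give an Affymetrix protocol, while the methods call the arrays Agilent. The authors' later variance filter (cutoff 0.5) was applied here only as an alternative, since 13 of the 37 members do not pass it. Probe sets with 1 annotated gene (19070) were kept, those with several (1043) or none named (2164) were left out, and probe sets were averaged per gene, giving 11963 genes (symbols through RefSeq, GRCh38.p14). Differences were fitted on the log2 scale with limma 3.58.1 (lmFit and eBayes, R 4.3.3) over all 14 arrays, with no block because the methods name none. P-values were adjusted over all genes by the Benjamini-Hochberg method, with calls below 0.05. The fit was also run on simulated data with independent noise in each array, which cannot test it under correlation within runs. The number of arrays limits the precision.

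Groups, times and dose came from the labels, and runs and days are a reading of the tag in the sample descriptions. Residuals of arrays of the same run correlated at r = 0.299 to 0.537 in all 13 pairs (median 0.375). For arrays of other runs r ranged from -0.469 to 0.473 over 52 pairs (median -0.264), so the ranges overlapped. Residuals were centred within each group, which pulls correlations between runs below 0. The run as a block was fitted as an alternative, and run and day were not told apart. Other alternatives were other normalizations, filters, thresholds, probe set choices and variance models, day 1 or days 2 to 4 alone, and each array left out in turn. Members and lists were chosen with earlier results of these data known. Values in every array are given for members with the largest changes at each comparison or the largest differences between runs, and from each list up to 5 called genes with the smallest adjusted p could be named.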

Additional observations from a re-analysis of the deposited data

Results flagged for a closer look

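Among 111 gene-by-group sets of arrays, 5 held an array far from the rest, where chance alone gives about 1 in 20. EIF2AK2 read 8.63 in the 8 h array of run 5, with the nearest array of the group at 8.70. IFITM1 was low in run 3 at both times, at 7.67 in the 24 h array (next 8.09) and 7.80 in the 8 h array (next 8.17). GBP1 read 7.39 in the 24 h array of run 4 (next 7.0), and IFI6 read 7.36 in the untreated array of run 4 (next 7.08).

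GBP1 was called higher at 8 h and lower at 24 h against untreated cells, and the difference between both times was -0.88 (adjusted p = 0.000251, limma, lower in 5 of 5 runs). These calls belong to the average of 2 probe sets. In a limma fit per probe set, neither passed at 24 h against untreated cells (adjusted p = 0.0636 and 0.0562). At 8 h the brighter one passed (adjusted p = 0.04) and the dimmer one did not (0.0782). Both passed between 24 h and 8 h.

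The change on day 1 (runs 1 and 2) was compared with that on days 2 to 4 by an interaction term over all genes, which called 600 genes at 8 h and 153 at 24 h. RIGI differed at 8 h by -0.78 (adjusted p = 0.0138), with -0.47 on day 1 and 0.31 on days 2 to 4. ISG20 differed at 8 h by -0.56 (adjusted p = 0.00845), with rises of 1.88 on day 1 and 2.44 on days 2 to 4. ISG15 differed at 8 h by 0.53 (adjusted p = 0.00689), with 0.05 on day 1 and -0.48 on days 2 to 4. ISG15 also differed at 24 h by 0.54 (adjusted p = 0.0141), with 0.44 on day 1 and -0.10 on days 2 to 4.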

How the results depend on the processing

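No member changed sign between the fit reported and an alternative while called in either. A minimum of 1.5-fold left 635 genes at 8 h (5.31% of all genes), 1887 at 24 h (15.8%) and 846 between 24 h and 8 h (7.07%). Among members it left MX1, ISG20, SP100 and TAP1 higher and 2 lower at 8 h. It also left 6 higher and 2 lower at 24 h, and 4 higher and 1 lower between 24 h and 8 h. An adjusted p below 0.01 left 1520 genes (12.7% of all genes) and 9 of the 12 member calls at 8 h. It left 10 members higher and 4 lower at 24 h, where 31.9% of all genes were called. Between 24 h and 8 h it left 12 higher and 2 lower, where 20% of all genes were called. Within day 1, 14 members were higher and 2 lower between 24 h and 8 h, where 28.1% of all genes were called. With each array left out in turn, genes called ranged from 1959 to 2374 at 8 h, from 4486 to 4871 at 24 h and from 3007 to 3379 between 24 h and 8 h. Members called higher ranged from 5 to 7, from 10 to 14 and from 13 to 17 in that order, and members called lower from 4 to 7, from 6 to 9 and from 3 to 4.

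With the run as a block, which compares arrays within runs, 3243, 5525 and 4359 genes were called in the same order. All 12, 21 and 19 member calls remained, and 3, 3 and 4 members were gained, whose blocked values stand beside them except for OAS2 between 24 h and 8 h (log2 0.24, adjusted p = 0.0145). With the run as a random block the gains of IFITM1 and MX2 at 8 h and of OAS2 at 24 h were not made, and IFI27 was gained at 24 h (0.17, adjusted p = 0.0473).

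Leaving out 1 array ended these calls. GBP1 lost its 8 h call when any 1 of 10 arrays was left out (all but the untreated array of run 4, the 8 h arrays of runs 1 and 3 and the 24 h array of run 4; adjusted p up to 0.139) and its 24 h call with any 1 of 9 (all but the untreated arrays of runs 1 and 2, the 8 h arrays of runs 3 and 4 and the 24 h array of run 4; up to 0.199). MX2 at 24 h failed without the 24 h array of runs 3, 4 or 5 or the untreated array of runs 1, 2 or 4 (log2 0.34 to 0.40, adjusted p up to 0.102), and TRIM21 at 24 h without the 24 h array of runs 1, 3, 4 or 5 or the untreated array of runs 1 or 2 (0.15 to 0.22, up to 0.155). IRF1 at 8 h failed without the 8 h array of runs 1 or 3 or the untreated array of runs 2 or 3 (-0.23 to -0.20, up to 0.0691), and at 24 h against 8 h without the 24 h array of run 5 (0.18, 0.0527). IFI35 at 8 h failed without the 8 h array of runs 1 or 3 or the untreated array of runs 1, 2 or 3 (-0.25 to -0.21, up to 0.0897). OAS3 at 24 h failed without the 24 h array of run 1 or the untreated array of runs 1 or 4 (-0.30 to -0.24, up to 0.0921), IFIH1 at 24 h without the 24 h or the untreated array of run 3 (-0.20 to -0.19, up to 0.0614), and OAS1 at 24 h without the untreated array of run 1 (0.34, 0.0628). Between 24 h and 8 h, GBP2 failed without the 24 h array of runs 2 or 5 or the 8 h array of runs 1 or 4 (0.18 to 0.21, up to 0.0705), and IFI44 without the 24 h array of run 3 (-0.27, 0.0517).

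In the arrays of day 1 alone, or of days 2 to 4 alone, every call lost kept its direction. On day 1 these were IFIT3, IFI35, OAS3 and TAP2 at 24 h (log2 0.29, -0.16, -0.27 and -0.16), IRF1, IFIT5 and IFI35 at 8 h (-0.20, -0.22 and -0.32), and IRF1, USP18, GBP2, OAS3 and IFI44 between 24 h and 8 h (0.19, 0.37, 0.27, -0.31 and -0.28). On days 2 to 4 they were GBP1, IFIH1 and TRIM21 at 24 h (-0.55, -0.16 and 0.10), GBP1, IRF1 and IFI35 at 8 h (0.27, -0.26 and -0.19), and GBP2 and IRF1 between 24 h and 8 h (0.18 and 0.24). Some calls gained in these fits stand in no other place. They were TAP2 at 8 h on days 2 to 4 (-0.26, adjusted p = 0.0429), OAS2 at 24 h on days 2 to 4 (-0.27, 0.0332), and OAS2 and TRIM22 between 24 h and 8 h on day 1 (0.44 and 0.36, 0.0032 and 0.00672). Dim signal limits IFIT1, GBP2, IFI27, IFI44L and 1 of the 2 probe sets of IFI44. It also limits the dimmer probe sets of IFIH1, TAP2 and SP100.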

Other observations

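Of 16 measured sensors and adaptors that lie upstream of interferon production, 3 were called higher and 2 lower at each time (31.2% called, against 19.7% of all genes at 8 h and 40.5% at 24 h). TLR7, the endosomal receptor for single-stranded RNA, was higher at 8 h (log2 0.61) and 24 h (log2 0.91), and MAVS, the mitochondrial adaptor of RIGI and IFIH1, was higher at 8 h (log2 0.24) and 24 h (log2 0.45). TRAF3, a ligase that links these receptors to the kinase TBK1, fell by 0.53 at 8 h and by 0.93 at 24 h. TICAM1, the adaptor of TLR3, fell by 0.36 at 8 h and did not pass at 24 h (log2 -0.16).

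Most genes of MHC class I presentation were not called. Of 14 measured, 1 was called higher and 2 lower at 8 h (21.4%, against 19.7% of all genes), and 2 higher and 3 lower at 24 h (35.7%, against 40.5% of all genes). HLA-F was higher at 8 h (log2 0.59) and 24 h (log2 0.71), and HLA-E was higher at 24 h (log2 0.32). The immunoproteasome subunits PSMB9 and PSMB10 fell at 24 h by 0.59 and 0.28, and the proteasome activator PSME1 fell by 0.49. B2M, the light chain of every class I molecule, did not pass at 24 h (log2 0.00, adjusted p = 0.999).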
